A study of Equus caballus with 26 samples.

Results

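The genes described here make, store and break down glycogen, the branched glucose polymer that cells keep as an energy reserve. They were followed in the whole blood of endurance horses before (T0) and after (T1) a 160 km ride. The 9 members are *GYG1*, *UGP2*, *GYS1*, *GBE1*, *PYGL*, *PYGB*, *PHKA2*, *GAA* and *STBD1*, of 24415 gene names on the array. They were taken by gene name from the scanner files, with LOC100058284 (FAM47E-STBD1) read as *STBD1*, LOC100051543 as *UGP2* and LOC100058811 as *GYG1*, and each gene was represented by its brightest probe, judged over the 26 arrays. They were chosen by their measured levels and background flags at T0 and T1 in both sets, so that their T1 minus T0 differences are described without a test.

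The arrays came from 23 horses in 4 groups. The training set held 3 geldings (horses 2, 32 and 41), each measured at T0 and at T1. The validation set held 7 horses at T0 (3 females and 4 geldings) and 13 other horses at T1 (3 females and 10 geldings), with 1 array a horse. The study recruited Arabian or half-Arabian horses (20 females and 41 geldings) whose age averaged 10 years with a standard error of 2, and the labels give no age per sample and the breed only as Autre. The paper describes a smaller selection of 41 horses, with other numbers of females and geldings. All horses entered a ride and none was a sedentary control, so that the ride and the hours that passed cannot be told apart. In the validation set T0 and T1 are also different animals. By the paper's methods, most of its horses sampled at T0 alone did not finish the ride. All of those sampled at T1 did, so that finishing and time point cannot be told apart in that set. The RNA was that of the blood's circulating cells, and in such a mixture fewer cells of a type and less RNA per cell cannot be told apart.

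Glycogen starts on glycogenin, the protein encoded by *GYG1*, which attaches the first glucose units to itself. *UGP2* makes UDP-glucose, the activated sugar that glycogen synthase (*GYS1* encodes the form of muscle and most other tissues) adds to the chain, and the branching enzyme *GBE1* turns chain ends into side branches. Phosphorylases (*PYGL*, the liver type, and *PYGB*, the brain type) release glucose 1-phosphate, under the control of phosphorylase kinase, of which *PHKA2* encodes a regulatory subunit. *GAA* is the acid glucosidase that digests glycogen in lysosomes, and *STBD1* encodes a membrane protein that binds glycogen through a starch-binding domain. Among blood cells, neutrophils are known for their glycogen store, which they use where oxygen and glucose are scarce.

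The probes show what was measured for each gene. The first set is *STBD1*, whose 2 probes lie next to each other. Capitals mark the 14 bases that both hold, and each sequence is written 5′ to 3′ as the array lists it.
STBD1 probe in use: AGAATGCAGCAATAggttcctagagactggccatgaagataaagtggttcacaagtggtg
STBD1 other probe: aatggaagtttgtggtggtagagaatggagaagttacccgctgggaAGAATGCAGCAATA

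The next sequences are those of glycogenin and of both phosphorylases, shown because the phosphorylases are related enzymes. No probe was compared here with the transcript of the other enzyme. The 3 printed lines hold no capitals.
GYG1: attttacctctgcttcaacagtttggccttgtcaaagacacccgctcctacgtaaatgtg
PYGL: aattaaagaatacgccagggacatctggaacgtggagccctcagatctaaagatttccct
PYGB: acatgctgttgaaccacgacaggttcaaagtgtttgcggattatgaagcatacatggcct

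No 2 of the 9 probes in use shared a run longer than 7 bases, and each sequence occurred on the array under 1 probe name. The file headers name the build EquCab1, and the positions below are those of the array's annotation, which could not be checked against a genome here. The *STBD1* probe lies at chr3:39531142-39531201 on the plus strand, *GYG1* at chr16:78584999-78585058 on the minus strand, and *PYGL* at chr1:178466926-178466985 on the minus strand. The 60 bases of the *PYGB* probe span 1292 bases at chr22:170772-172063 (plus strand), and those of *PHKA2* span 2369 bases at chrX:7961217-7963585 (minus strand), so that by this annotation each crosses at least 1 intron. The remaining probes are annotated at chr26:33467104-33467163 (*GBE1*), chr15:34371518-34371577 (*UGP2*) and chr11:1610952-1611011 (*GAA*), all on the minus strand, and *GYS1* is on unplaced sequence.

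A level is the log2 of Agilent's processed signal minus the 75th percentile of its array, so that 0 is that percentile. Levels of different probes are not comparable with each other, and only differences within a gene are given. Between 60.2% and 75.3% of the probes of an array were well above background. limma called 1794 of 17490 gene names in the training set (10.3%) and 7692 of 17405 in the validation set (44.2%) at an adjusted p under 0.05. Of the training calls 60.6% were higher at T1, a share that was 49.6% with quantile normalization, 48.1% with normexp and quantile normalization and 47.7% in the series values. Horse 47 stood apart at T0, with neutrophil and T cell marker scores inside the T1 ranges, and the main differences are also given without it. The T1 array of horse 34 was scanned in 1 pass and held 431 saturated spots, none of them a member's probe.

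After the ride, *STBD1*, *GYG1*, *PYGL*, *UGP2* and *GBE1* had mean levels that were higher by 1.01 or more in both sets. Their training groups did not overlap, as was the case for 17.7% of all gene names in that direction. *GYS1*, *PYGB*, *PHKA2* and *GAA* had differences between -0.54 and 0.59 and groups that overlapped in both sets. Of the 9, *STBD1* had the largest difference, of 7.71 ± 0.34 (SE) in the training set and 6.83 ± 0.48 in the validation set on the log2 scale. Next came *GYG1*, with 3.21 ± 0.57 and 3.04 ± 0.47. Without horse 47 the validation differences were 7.39 for *STBD1*, 3.47 for *GYG1*, 1.75 for *PYGL*, 1.15 for *UGP2* and 1.14 for *GBE1*. For the other 4 they were 0.40 (*GYS1*), -0.34 (*PYGB*), 0.35 (*PHKA2*) and -0.04 (*GAA*). The adjusted p was under 0.05 for 4 of the 9 members in the training set, against 10.3% of all gene names, and for 5 of 9 in the validation set, against 44.2%. Since these contrasts chose the members, nothing is read from those counts. *STBD1* met the filter on arrays well above background only with its T1 arrays. In the training set these were 3 of 3 at T1 and 1 of 3 at T0, where 3 were needed. In the validation set they were 13 of 13 and 5 of 7, where 7 were needed.

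**Figure D1:**
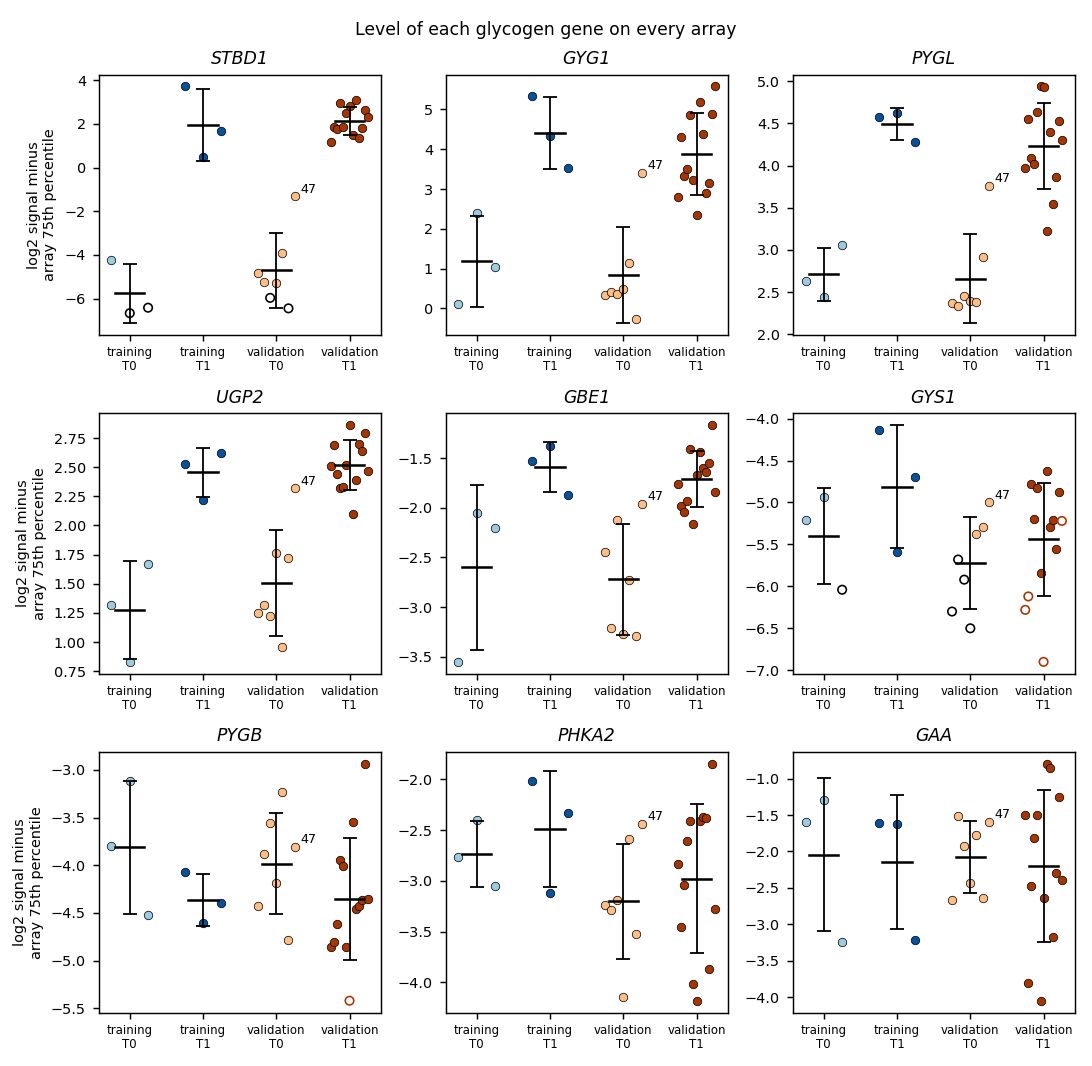
Level of each gene (log2 processed signal minus the array's 75th percentile, vertical axis) on every array of the 4 groups, with the mean and SD of each group as bars and open circles for arrays on which the probe was not well above background. *STBD1* is separated between T0 and T1 in both sets, and horse 47, marked, lies nearest to the T1 horses for *STBD1*, *GYG1*, *PYGL* and *UGP2* at T0.

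The primer of glycogen synthesis came first in the pathway and second in size. *GYG1* was at 0.12, 2.40 and 1.03 at T0 in horses 2, 32 and 41 and at 5.33, 4.34 and 3.53 in the same horses at T1. Each horse was higher after the ride, by 5.21, 1.93 and 2.50. In the validation set *GYG1* ran from -0.27 to 3.41 at T0 (median 0.42, n = 7) and from 2.35 to 5.58 at T1 (median 3.51, n = 13). The groups met only through horse 47, which had the 3.41, whereas the next highest T0 horse was at 1.15. All 13 T1 horses were above the other 6 T0 horses, and 7 of 13 were above horse 47. With horse 47 kept, the groups of 1.45% of all gene names did not overlap in that set, with T1 higher. That share was not computed without horse 47, so that it is lacking here and for *UGP2* and *PYGL* below. In the training set the difference of *GYG1* was 2.22 without horse 2. Among the validation T1 horses *GYG1* was also the most spread of *STBD1*, *GYG1*, *PYGL*, *UGP2* and *GBE1*, with an SD of 1.04 against 0.21 for *UGP2*. Among the training T1 horses the SD of *STBD1* (1.63) exceeded that of *GYG1* (0.90).

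*UGP2*, the source of UDP-glucose, was at 1.32, 0.83 and 1.67 at T0 and at 2.53, 2.22 and 2.62 at T1 in horses 2, 32 and 41. The validation horses ranged from 0.96 to 2.32 at T0 (median 1.32) and from 2.10 to 2.86 at T1 (median 2.51). The fold difference was 2.27 in the training set and 2.02 in the validation set, and the SD of the T1 horses was 0.21. Here too the overlap was due to horse 47 (2.32), and the 13 T1 horses were above the other 6. A second probe of the same gene name, which abuts the first, differed by 1.05 and 0.87 in the training and validation sets, and a 50-base probe listed as UGP2, whose whole sequence lies within the first probe, differed by 1.22 and 0.99. Of the 3 probes 2 share bases and are not separate evidence.

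Glycogen synthase itself was dim. *GYS1* was well above background on 3 of 7 validation T0 arrays, 9 of 13 T1 arrays and 5 of 6 training arrays. Its levels ran from -6.50 to -5.00 at T0 (median -5.68) and from -6.90 to -4.62 at T1 (median -5.22), so that the T1 range enclosed the T0 range. Horses 2 and 41 were higher after the ride by 1.08 and 1.33, and horse 32 was lower by 0.65 (a difference of -0.65). The mean difference was 0.59 ± 0.43 in the training set and 0.28 ± 0.28 in the validation set. The former was 1.20 without horse 32 and 0.21 without horse 41, and 0.11 with normexp, and the latter was 0.09 with normexp and 0.04 with scan day in the model.

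The branching enzyme was higher by 1.01 in both sets, and by 0.64 (training) and 0.67 (validation) with normexp and quantile normalization. *GBE1* went from -3.55 to -1.53 in horse 2, from -2.05 to -1.38 in horse 32 and from -2.20 to -1.87 in horse 41, which are differences of 2.03, 0.67 and 0.33. Without horse 2 the training difference fell from 1.01 to 0.50. In the validation set *GBE1* ran from -3.29 to -1.96 at T0 (median -2.73) and from -2.16 to -1.17 at T1 (median -1.67), a difference of 1.01 ± 0.19. The ranges overlapped narrowly, with 10 of 13 T1 horses above the highest T0 horse (horse 47 again) and 12 of 13 above the other 6.

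Of the phosphorylases, the liver type was higher at T1 and the brain type was not. *PYGL* was at 2.63, 2.44 and 3.06 at T0 and at 4.58, 4.63 and 4.28 at T1 in horses 2, 32 and 41. The T0 horses of the validation set lay close together, from 2.33 to 2.92, apart from horse 47 at 3.76. At T1 the range was 3.22 to 4.94 (median 4.30), above all T0 horses but horse 47. The fold difference was 3.45 in the training set and 2.97 in the validation set. A 50-base *PYGL* probe with no position in the annotation differed by 1.46 and 1.20 in the same direction.

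*PYGB* was at -3.80, -3.12 and -4.52 at T0 and at -4.07, -4.61 and -4.40 at T1 in the training horses. It ranged from -4.78 to -3.23 at T0 (median -3.88) and from -5.42 to -2.94 at T1 (median -4.43) in the validation set. Of the T1 horses 1 lay above the T0 range and 4 lay below it. The differences of -0.54 ± 0.38 and -0.37 ± 0.27 shrank to -0.20 and -0.06 with normexp and quantile normalization. With scan day in the model the validation difference was -0.66, and the training difference was -0.07 without horse 32 and -0.88 without horse 41. *PHKA2*, the phosphorylase kinase subunit, differed by 0.25 ± 0.38 and 0.22 ± 0.30, with T1 levels from -4.18 to -1.85 around T0 levels from -4.14 to -2.44. Without horse 32 the former difference was 0.73 and without horse 2 it was 0.00. With scan day in the model the latter was -0.19, so that *PHKA2* had no settled direction.

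The lysosomal enzyme had T0 and T1 levels that overlapped in both sets. *GAA* was at -1.60, -1.29 and -3.24 at T0 and differed by -0.01, -0.32 and 0.03 in the 3 training horses, although the horses themselves lay up to 1.95 apart. In the validation set it ran from -2.67 to -1.51 at T0 and from -4.05 to -0.80 at T1, a difference of -0.12 ± 0.39 that was 0.06 with normexp and in the series values, -0.43 with scan day in the model and -0.23 without horse 34. Its SD was 0.50 at T0 and 1.04 at T1.

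*STBD1* was at -4.21, -6.66 and -6.41 at T0 in horses 2, 32 and 41, and only the first of these was well above background. At T1 the same horses were at 3.71, 0.48 and 1.65, higher by 7.92, 7.14 and 8.06. In the validation set it ran from -6.44 to -1.32 at T0 (median -5.24, 5 of 7 arrays well above background) and from 1.17 to 3.07 at T1 (median 1.87, 13 of 13). It was the one member whose validation groups did not overlap, as was the case for 1.45% of all gene names in that direction, while in the training set 5 members did not overlap, against 17.7%. The highest T0 horse was horse 47. The neighbouring probe differed by 6.27 and 6.63, and over the 13 T1 horses it followed the first with r = 0.98.

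How large the *STBD1* difference was depended on the treatment of background, since the T0 signal was near it. In the training set it was 7.75 with quantile normalization, 4.62 with normexp and quantile normalization and 4.82 in the authors' series values. The validation values were 6.82, 4.43 and 4.63. A fold of 209 (training) or 113 (validation) on the main scale is therefore specific to that scale. *GYG1* moved far less, between 2.84 and 3.21 in the training set and between 2.76 and 3.04 in the validation set over these scalings.

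**Figure D2:**
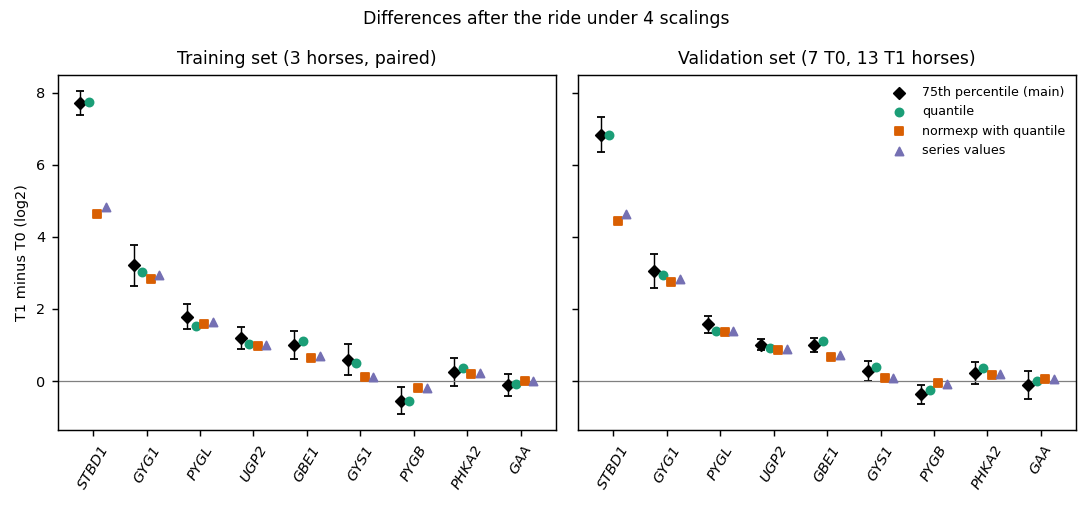
T1 minus T0 difference (log2, vertical axis) of each gene in the training set (left) and the validation set (right) under 4 scalings, with the standard error of the main fit as bars. *STBD1* falls from 7.71 to 4.62 (training) and from 6.83 to 4.43 (validation) with normexp, and *GYS1*, *PYGB*, *PHKA2* and *GAA* lie between -0.56 and 0.59 under all 4.

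The arrays were scanned on 8 days, 5 of which held both time points of the validation set. Within each of the 5 days, *STBD1*, *GYG1*, *PYGL*, *UGP2* and *GBE1* were higher at T1. The within-day differences ran from 5.75 to 8.25 for *STBD1*, from 1.21 to 4.37 for *GYG1*, from 1.44 to 2.55 for *PYGL*, from 0.66 to 1.91 for *UGP2* and from 0.39 to 1.57 for *GBE1*. *PYGB* was higher at T1 on 1 of 5 days, *PHKA2* on 2 and *GYS1* and *GAA* on 3 each.

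Whether both sets changed alike was asked of the difference between their T1 minus T0 differences. It is built from the group levels that chose the members, so that it is given for them as a description. Over all gene names limma called 0 of 19413, with 158 (0.814%) at an unadjusted p under 0.05. The difference between the sets was 0.88 for *STBD1* (95% interval -1.36 to 3.12) and 0.17 for *GYG1* (-1.86 to 2.20), which leaves room for sizeable differences. The interval was narrower for *UGP2* (-0.50 to 0.84) and *PYGL* (-0.72 to 1.16). For *GBE1* it ran from -0.88 to 0.88. These values rested in part on horse 47, without which the difference between the sets was 0.32 for *STBD1* and -0.26 for *GYG1*, the latter with its sign turned. *UGP2* went from 0.17 to 0.04, *PYGL* from 0.22 to 0.03 and *GBE1* to -0.13. For *STBD1* it was also 0.19 with normexp or in the series values.

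The sets were also compared at each time point, again as a description of the members. At T0, *STBD1* had a mean of -5.76 in the training set and -4.71 in the validation set, a difference of -1.05 (95% interval -3.06 to 0.95) that was -0.49 without horse 47. *GYG1* differed by 0.34 (-1.16 to 1.84) and *PYGL* by 0.05 (-0.65 to 0.75), and without horse 47 by 0.77 and 0.23. The training horses moved these values as well, with *GYG1* at -0.27 without horse 32 and 0.88 without horse 2, *PYGL* at -0.13 without horse 41 and 0.19 without horse 32, and *STBD1* at -1.83 without horse 2 and -0.61 without horse 32. With normexp *STBD1* differed by -0.30. At T1 the means of *UGP2* were 2.46 and 2.52 (difference -0.06, interval -0.41 to 0.28), and those of *GBE1* were -1.59 and -1.71 (0.11, -0.30 to 0.52). Neither sign was settled, with *UGP2* at 0.05 without horse 32 and *GBE1* at -0.01 in the series values. limma called no gene name at either time point, and 236 of 17884 (1.32%) at T0 and 716 of 18629 (3.84%) at T1 had an unadjusted p under 0.05.

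Females and geldings of the validation set were compared with the time point in the model. No member passed, the lowest adjusted p being 0.61 for *UGP2*, whose female minus gelding difference was -0.28 (interval -0.61 to 0.05). *GYG1* differed by -0.71 (interval -1.74 to 0.31), with T1 means of 3.12 in 3 females and 4.11 in 10 geldings. Without horse 47, a gelding, the differences were -0.42 for *GYG1* and -0.19 for *UGP2*. Over all gene names limma called 7 of 17646 (0.0397%).

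Variation between horses at a single time point is a further measure on which the choice did not rest. Among the 13 validation T1 horses, *STBD1*, *GYG1*, *PYGL*, *UGP2* and *GBE1* did not share a common order. The 10 correlations among them ran from r = -0.45 to 0.59 with a median of 0.08. Horse 21 had the second highest *PYGL* (4.93) and the highest *UGP2* (2.86), but the lowest *GYG1* (2.35). Horse 24 showed the opposite, with the lowest *PYGL* (3.22) and *UGP2* (2.10) and a *GYG1* of 5.18. On the array of horse 21, which had the lowest share of probes well above background (60.2%), *PHKA2* was at -4.18, the lowest of the 13, and *GYS1* and *PYGB* were not well above background.

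Of 36 pairs of members, 2 passed after Benjamini-Hochberg adjustment of permutation p-values, both with *PYGB*. It followed *GYS1* with r = 0.79 (rho = 0.78, permutation p = 0.00118 and 0.00264, adjusted p = 0.0362 and 0.0871) and *PHKA2* with r = 0.76 (rho = 0.63, permutation p = 0.00201 and 0.0238, adjusted p = 0.0362 and 0.123). Without the 2 horses farthest from the median of *PYGB*, r was 0.77 and 0.54. With quantile normalization 3 pairs passed, of which only *PYGB* with *GYS1* (r = 0.77, adjusted permutation p = 0.0292) was among these, while *GYG1* with *GYS1* (r = 0.79, p = 0.0292) and with *PYGB* (r = 0.71, p = 0.046) passed there and not on the main scale. *PYGB* and *PHKA2* gave r = 0.64 there (adjusted permutation p = 0.163). Neither pair passed with normexp or in the series values, where *PYGB* and *GYS1* gave r = 0.59 and 0.62 and *PYGB* and *PHKA2* gave r = 0.71 and 0.74. *GYS1* was well above background on 17 of the 26 arrays, *PYGB* on 25 and *PHKA2* on 26, and the share of probes well above background on an array correlated with *PYGB* at r = 0.22, *GYS1* at r = 0.47 and *PHKA2* at r = 0.34 (rho = 0.26, 0.50 and 0.34, permutation p of r = 0.476, 0.104 and 0.247, adjusted p = 0.639, 0.42 and 0.556 over 9 relations, a check chosen after the values were seen). The part of that share in the correlations was not tested, and no scan day held 6 of these horses. The B cell score, the mean level of its marker genes, correlated with *PYGB* at r = 0.58, *GYS1* at r = 0.72 and *PHKA2* at r = 0.64 (rho = 0.49, 0.76 and 0.44, permutation p of r = 0.0361, 0.00626 and 0.0187, adjusted p = 0.325, 0.127 and 0.304 over 81 relations). Its part in the pairs was not tested either.

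**Figure D3:**
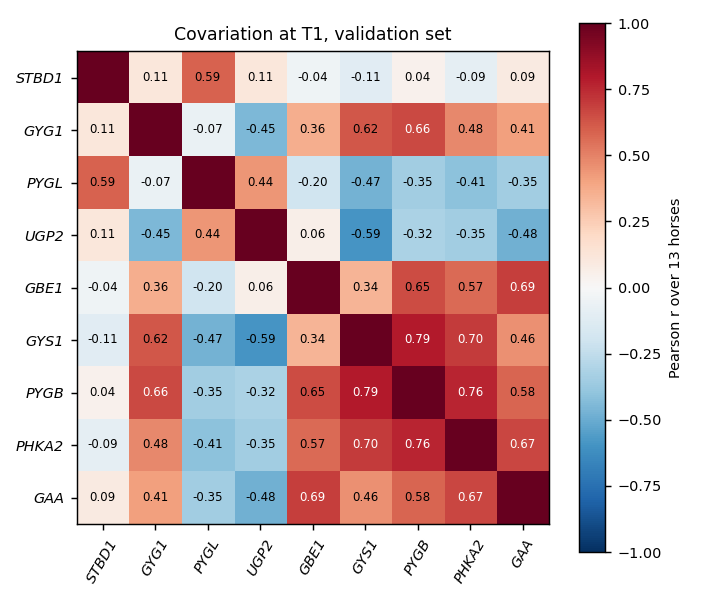
Pearson r between the levels of each pair of genes over the 13 validation T1 horses (colour and printed value). *PYGB* with *GYS1* (0.79) and with *PHKA2* (0.76) are the pairs that passed, and the values among *STBD1*, *GYG1*, *PYGL*, *UGP2* and *GBE1* lie on both sides of 0.

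Of 8286 gene names with a symbol that were well above background on all 13 arrays, those most like *GYG1* were *VPS45* (r = 0.96), *SDHC* (0.96) and *GOSR2* (0.95). Among those most like *PYGL* were *SPTLC2* (0.92) and *CAP1* (0.88), and *UGP2* was most like *CDK9* (0.94), *CSNK2A2* (0.88) and *LRRFIP1* (0.87). For *GBE1* the nearest were *LMO4* (0.92), *RAB11FIP1* (0.91) and *LONRF3* (0.90). *STBD1* had no gene as near, with *RNGTT* at 0.76, *KAT5* at 0.73 and *EDEM1* at 0.71. The nearest to *PYGB* were *ZGPAT* (0.94), *CXCR3* (0.92) and *RNASEH2C* (0.90), to *GYS1* *REXO4* (0.92), *PCYT2* (0.90) and *RNASEH2C* (0.89), to *PHKA2* *VGLL4* (0.94), *OS9* (0.93) and *PCIF1* (0.92), and to *GAA* *RIC1* (0.90), *CHMP7* (0.89) and *TSC22D1* (0.88). These are the highest of 8286 values each over 13 shared arrays and are given as a description.

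Blood cell markers moved with time point as well. All 12 mature neutrophil markers tested were higher at T1 in the validation set and 8 of 12 in the training set, and 10 of 11 T cell markers and 6 of 7 B cell markers were lower in the validation set and 6 of 11 and 2 of 7 in the training set. Over all gene names 20.2% were higher and 24% lower in the validation set, and 6.22% and 4.04% in the training set. In the validation set 6 of 9 NK cell markers were lower and 1 higher, of 8 monocyte markers 4 were higher and 1 lower, and 4 of 5 basophil and eosinophil markers were lower. The neutrophil score, the mean level of its genes, ran from 1.36 to 3.50 before the ride (median 1.53) and from 3.05 to 4.09 after it (median 3.44). *CXCR1* and *FPR1* of that list had no probe in use. Of the immature neutrophil granule list, 5 of 6 genes were higher in the validation set (*LTF*, *LCN2*, *OLFM4*, *MMP8* and *BPI*). The other, *MPO*, differed by -0.53 and did not pass. *PRTN3* had a probe but was not tested, and *ELANE*, *AZU1*, *CTSG*, *CAMP* and *CEACAM8* had no probe in use. Platelet and erythroid genes gave 1 higher gene each, of 5 and 3 tested.

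The T0 array of horse 47 had a neutrophil score of 3.50 and a T cell score of -0.28, inside the T1 ranges (T cell range at T1 -1.36 to -0.04), and its erythroid score of 3.03 was the highest at T0. Its basophil and eosinophil score of -2.67 lay outside the T1 range (-4.62 to -3.66) and was the lowest of the T0 horses (-2.67 to -1.57). Its scores for immature neutrophil granules (0.84), monocytes (1.86) and NK cells (-0.35) were also inside the T1 ranges. The part of cell numbers in its high *GYG1*, *PYGL*, *UGP2* and *STBD1* was not tested.

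Within the 13 T1 horses, 81 relations of members with 9 marker scores were tested, and none passed after adjustment on the main scale, with 10 at an unadjusted permutation p under 0.05. *GYG1* and the neutrophil score gave r = 0.77 (rho = 0.69, permutation p = 0.00319 and 0.0117, adjusted p = 0.126 and 0.238), and r was 0.81 without the 2 horses farthest from the median score. The same relation had r = 0.87 and an adjusted permutation p = 0.0292 with quantile normalization, r = 0.87 and p = 0.0348 with normexp and r = 0.86 and p = 0.0373 in the series values, while the adjusted p of rho was 0.226, 0.28 and 0.339. *STBD1* gave r = 0.03 with that score (rho = 0.19, permutation p = 0.913 and 0.54). *PYGL* gave r = 0.27 (rho = 0.44, permutation p = 0.374 and 0.136). *UGP2* and the T cell score gave r = -0.73 (rho = -0.66, permutation p = 0.00451 and 0.0159, adjusted p = 0.126 and 0.257, r = -0.62 without the 2 farthest horses) and *UGP2* and the B cell score r = -0.73 (rho = -0.71, permutation p = 0.00467 and 0.00748, adjusted p = 0.126 and 0.238, r = -0.63). *GYS1* and the B cell score went the other way, with r = 0.72 (rho = 0.76, permutation p = 0.00626 and 0.00402, adjusted p = 0.127 and 0.238, r = 0.59 without the 2 farthest horses). Whether *GYG1* and *STBD1* differ in their relation to the neutrophil score was not tested.

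**Figure D4:**
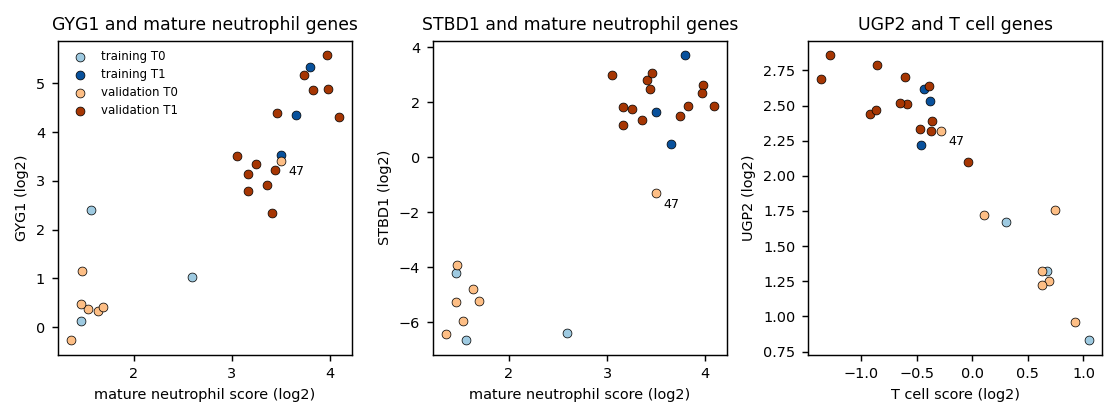
Level of *GYG1* and *STBD1* against the mature neutrophil score and of *UGP2* against the T cell score (all log2, each point 1 array, colours for the 4 groups). T0 and T1 arrays form separate clusters apart from horse 47, so that r is given for the 13 validation T1 horses alone (0.77, 0.03 and -0.73).

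The other genes of glycogen handling were read from 6 lists of 60 genes, of which 42 were tested in the validation set. There 12 were higher and 5 lower at T1 (28.6% and 11.9%), against 20.2% and 24% of all gene names. In the training set 4 were higher and 1 lower of 42, against 6.22% and 4.04% of all gene names. The lists and their genes were chosen with these data known.

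Protein phosphatase 1, which switches glycogen synthase on and phosphorylase off, reaches glycogen through targeting subunits. *PPP1R3B*, the targeting subunit best known from liver, was higher at T1 by 2.20 ± 0.30 among the validation horses (limma, adjusted p = 1.53e-05) and by 2.48 ± 0.37 in the training set (adjusted p = 0.00752). The catalytic subunit *PPP1CB* was higher by 1.25 ± 0.16 and 1.27 ± 0.31 (adjusted p = 8.42e-06 and 0.0386). *PPP1CA* (-0.31), *PPP1CC* (0.18) and *PPP1R3D* (0.43) did not pass in the validation set. The median of these 5 genes was 0.43, against -0.07 over all gene names.

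Of the 4 further synthesis genes tested, *PGM2*, a phosphoglucomutase relative, was higher by 1.04 ± 0.16 (adjusted p = 4.46e-05 in limma) and *GSK3B*, a kinase that inhibits glycogen synthase, by 0.59 ± 0.17 (adjusted p = 0.00797), while *PGM1* (0.42) and *PGM2L1* (-0.28) did not pass. Neither *PGM2* nor *GSK3B* passed in the training set, with differences of 1.05 and 0.79 (adjusted p = 0.0619 and 0.171). The list's median was 0.51.

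Among 7 breakdown genes, the muscle phosphorylase *PYGM* was lower at T1 (difference -1.29 ± 0.47, adjusted p = 0.0301 in limma), and *GABARAPL1*, an autophagy protein known to bind STBD1, was higher by 1.12 ± 0.26 (adjusted p = 0.00173). In the training set they differed by -0.99 and 0.84 and did not pass. The phosphorylase kinase subunits *PHKB* and *PHKG2* differed by 0.42 and 0.36, neither of which passed. Of the kinases that act on glycogen enzymes, 2 of 8 were higher and 2 lower, with a median of -0.01. *PRKACB*, a catalytic subunit of the cAMP-dependent kinase, was lower in both sets (-1.13 ± 0.24, adjusted p = 0.000889, and -1.32 ± 0.31, adjusted p = 0.0348). The AMP kinase subunits went both ways, with *PRKAA1* at 0.93 ± 0.16 (adjusted p = 0.000135) and *PRKAB2* at -0.66 ± 0.17 (adjusted p = 0.00313), and *PRKAR1A*, a regulatory subunit of the cAMP-dependent kinase, was at 0.68 ± 0.12 (adjusted p = 0.000157). In the training set these 3 differed by 0.76, -0.58 and 0.67 and did not pass (adjusted p = 0.161, 0.266 and 0.221 in limma).

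Of 8 genes of glucose uptake and phosphorylation, the glucose transporter *SLC2A3* was higher by 1.77 ± 0.21 and 1.95 ± 0.36 in the validation and training sets (adjusted p = 4.76e-06 and 0.0171 in limma), and the hexokinase *HK3* by 0.93 ± 0.36 among the validation horses (adjusted p = 0.0432) and by 1.17 without passing in the training set (adjusted p = 0.0807). The list's median was 0.38. Of 10 lysosomal genes, which act in the compartment of *GAA*, 3 were higher and 2 lower, with a median of -0.01. The cathepsin *CTSB* was at 1.13 ± 0.16 (adjusted p = 1.92e-05 in limma), the membrane protein *LAMP2* at 0.84 ± 0.15 (adjusted p = 0.000208), the mannosidase *MANBA* at -0.76 ± 0.27 (adjusted p = 0.0277) and the galactosidase *GLB1* at 0.68 ± 0.23 (adjusted p = 0.0222). In the training set *CTSB* passed (1.27, adjusted p = 0.0475 in limma), whereas *LAMP2* (0.79), *MANBA* (-0.58) and *GLB1* (1.03) did not (adjusted p = 0.136, 0.284 and 0.0949). The blood cell markers given above also differed between T0 and T1. Their part in the differences of the list genes and of the members was not tested.

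**Figure D5:**
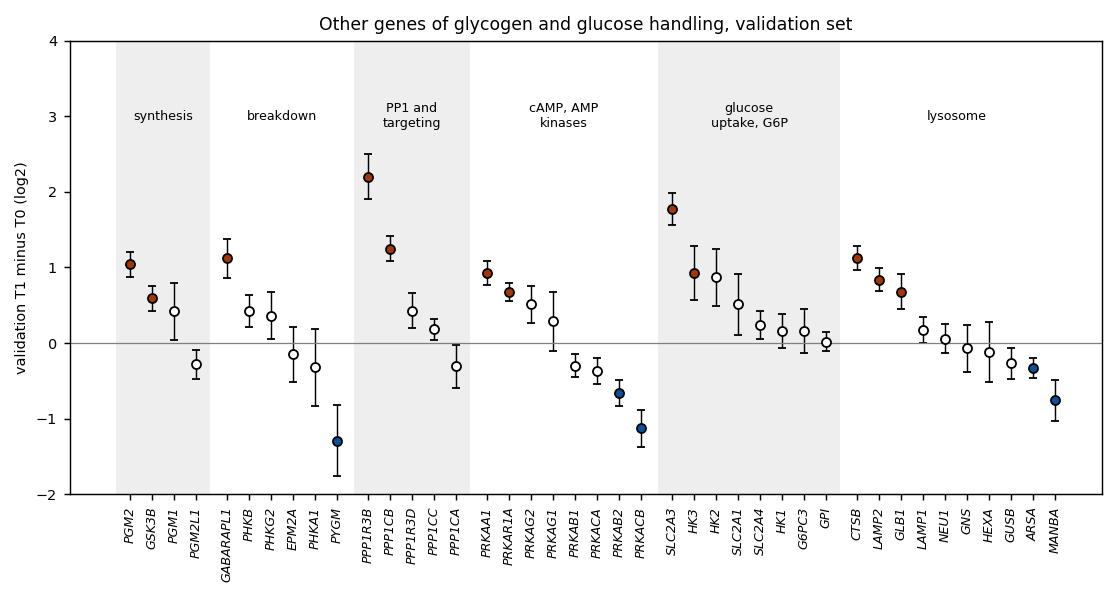
T1 minus T0 difference in the validation set (log2, vertical axis, bars for the standard error) of tested genes of the 6 lists, filled where the adjusted p was under 0.05 (red higher, blue lower). *PPP1R3B* (2.20) and *SLC2A3* (1.77) are highest and *PYGM* (-1.29) lowest.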

How the data were processed

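Whole-blood RNA of 26 samples (23 horses) was hybridised to Agilent equine arrays of 1 colour, of 45220 spots. The authors deposited scanner files whose intensity values were made by Feature Extraction 10.7.3.1, with background subtracted and no normalization between arrays, and flags for background, saturation and outliers as other columns. They also deposited a series table of log2 values, whose order within an array follows the scanner signal (Spearman rho of at least 0.973) and whose medians are 7.09 or 7.1, so that they were read as normalized between arrays. The aligner and similar steps do not apply, and limma is named in the submitters' processing notes.

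Groups were taken from the labels. Control and outlier spots were left out, replicate spots of 384 probes were averaged, log2 signals were set relative to the 75th percentile of their array, and a gene name was read from its brightest probe. Of 24415 gene names, 14700 had a symbol, 7599 of them through gene IDs of the RefSeq table of assembly TB-T2T. Gene names well above background on at least 3 arrays (7 in the validation set, 6 for sex) were fitted with limma 3.58.1 (R 4.3.3, statmod 1.5.0), with Benjamini-Hochberg adjustment and a threshold of 0.05. The horse was a fixed block in the training set, where the labels give each pair the same animal (r of a horse's T0 and T1 deviations -0.00866, 0.213 and 0.191 in horses 2, 32 and 41), and a random block in the test between the sets (consensus correlation -0.0696). A limma p-value weighs a difference against the spread between arrays that the model leaves. In the training set that is the spread of the T1 minus T0 differences of the horses. Its precision is limited by how many arrays a group holds. Correlations used 100000 permutations (Python 3.11.15, numpy 2.4.6, scipy 1.17.1, pandas 2.3.3, matplotlib 3.10.9), two-sided.

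The members, lists, named genes and tests were chosen with earlier results of these data known. Of each list, the 4 genes past the threshold with the largest validation difference were named, or all where 5 or fewer were tested, and others beside them as values. The 3 genes most like a member were those with the highest r. Some genes that these rules would name are not reported here. The fits and the correlation test were tested on simulated data. Alternatives covered the scaling (quantile, or normexp with offset 50 and then quantile), the deposited log2 table, the filter (none or the strictest), probe averaging, the model (without the replicate block, or 1 fit over the 26 arrays), batch and sex terms, and omitted horses. Promoters were not analysed here.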

Additional observations from a re-analysis of the deposited data

Results flagged for a closer look

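At T0 in the validation set, horse 47 was far from the other 6 horses for 2 of the 9 genes. Its *PYGL* level was 3.76 and the next was 2.92, a gap of 0.589 of the group's range, and its *GYG1* level was 3.41 and the next was 1.15, a gap of 0.616, both past Dixon's 95% critical value for 7 samples. Chance alone passes that value in about 1 of 20 groups. The same array had the highest *STBD1*, *UGP2*, *GBE1*, *GYS1* and *PHKA2* of the 7, without passing it.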

How the results depend on the processing

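The T1 minus T0 differences of *STBD1*, *GYG1*, *PYGL*, *UGP2* and *GBE1* kept their sign under the alternatives tried. Since these contrasts chose the members, nothing is read from that. The training fit was the least stable. It called 1794 gene names in the main fit, 46 with no filter, 2838 with a filter on every array, 2712 in a single fit of all 26 arrays, and between 180 (without horse 2) and 3218 (without horse 41) with a horse left out, with 831 without horse 32. Members past the threshold there numbered 4, against 1 with no filter and 0 (without horse 2), 3 or 5 with a horse left out, and *STBD1* was not tested without horse 2. The genes of the 6 lists that were higher in the training set numbered 4, against 0 with no filter and 0 to 4 with a horse left out, and those lower numbered 1, against 0 with no filter, 2 in the series values and with a filter on every array, and 0 to 1 with a horse left out. Without the replicate block, that is with the pairing of the training horses ignored, 1791 gene names and 4 members passed, and no other call of a member changed. The validation counts stayed between 6701 and 8303 gene names, with 7692 in the main fit. The comparison of sets called 0 gene names, 0 to 1 at T0 and 0 to 2 at T1 with a training horse left out, and that of sexes 7, or 13 with quantile normalization. Of the pairs of members 2 passed, 3 with quantile normalization (1 of them in common) and 0 with normexp or in the series values, whereas of relations with marker scores 0 passed, and 1 with each of the 3 other scalings. Leaving out horse 47 in the comparisons of sets and sexes was chosen after seeing the data. No promoter motif search was run. Signals near background, as of *STBD1* at T0 and of *GYS1*, limit the size of a difference that can be stated.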
